A study of Homo sapiens with 12 samples.

Results

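Metallothioneins and zinc transport are described here through 10 listed genes, of the 58735 genes in the count table. The genes were chosen by name, though with earlier results of these data known. They comprise 5 metallothioneins (MT1E, MT1F, MT1G, MT1X and MT2A), the metal-responsive transcription factor MTF1, the zinc exporter SLC30A1 (ZnT1) and 3 zinc importers of the SLC39 family (SLC39A6, SLC39A10 and SLC39A14, also called ZIP6, ZIP10 and ZIP14). RNA-seq of total RNA and Ribo-seq, which counts the mRNA fragments protected by ribosomes, were carried out on 293T 4A cells, a human embryonic kidney line stably expressing 4EBP1-4A from a doxycycline-inducible plasmid. 4EBP1-4A is a form of the translational repressor 4EBP1 whose phosphorylated residues were changed to alanine. Each assay has 3 libraries of cells given DMSO and 3 of cells given doxycycline at 2 mg/ml, and all were given cycloheximide for 10 min before lysis. The sample labels state 12 h of doxycycline and the series text states 2 h. The study's results text gives a time longer than both, so the length of treatment behind every fold change is uncertain. The controls carry the same plasmid, and no library of doxycycline-treated cells without it was analysed here, so doxycycline itself, an antibiotic that binds divalent metal ions, and the induced 4EBP1-4A cannot be told apart. Bulk libraries also cannot separate fewer cells expressing a gene from less of its RNA per cell. Levels are scaled to library size, so a change in total RNA per cell would not show.

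Metallothioneins are small cysteine-rich proteins that bind zinc and copper and buffer the free metal in the cytosol. MTF1 senses zinc through its zinc fingers and binds metal response elements in the promoters of the metallothionein genes and of SLC30A1, so that these genes rise with available zinc. SLC30 proteins move zinc out of the cytosol, into organelles or out of the cell, and SLC39 proteins move it in.

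In RNA-seq, 45887231 to 57824136 reads per library fell on genes, and 21687906 in doxycycline replicate 3. In that library 88.4% of all reads did not align uniquely, against 54.9% to 69.9% in the other 5, and fold changes are therefore given with and without it. In Ribo-seq the range was 210186 to 1002424 reads. EIF4EBP1, the gene from which 4EBP1-4A derives, had 156, 157 and 169 CPM (reads scaled to a common library size with TMM factors) in DMSO and 260, 281 and 267 CPM in doxycycline replicates 1 to 3, so that every RNA-seq library matched its label. The transcript of EIF4EBP1 has 62.9% GC. Its log2 fold change over all 6 libraries was 0.75, and 0.41 with offsets adjusted for GC content (edgeR's adjusted p of 0.33 and 0.30). Without doxycycline replicate 3 the values were 0.75 and 0.57 (edgeR's adjusted p of 1.2e-05 and 0.00026). Ribo-seq had 1 read of this gene in all, so those libraries could not be checked in this way. All 8 genes taken to mark the 293T line were above 1 CPM on average, and their summed level was 1109 to 1184 CPM in DMSO and 1189 to 1387 CPM with doxycycline. VIM made up most of this sum, at 770 to 825 CPM in DMSO. LIN28B, also among the 8, went the other way, at 119, 102 and 106 CPM in DMSO and 88.1, 77.1 and 35.4 CPM with doxycycline. Summed markers of blood cells were at 1.499 to 1.90 and 1.596 to 2.13 CPM, those of skin cells at 5.31 to 5.99 and 2.33 to 5.15 CPM with KRT5, KRT14 and DCD at 0 reads, those of fibroblasts at 12.2 to 14.7 and 14.05 to 28.0 CPM, and those of mature kidney tubule at 27.9 to 28.7 and 23.2 to 29.8 CPM with UMOD and AQP2 at 0 reads. The part of these other markers in the results was not tested.

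The promoters are shown first because the metal response element is what the metallothionein genes and SLC30A1 are known to share. RefSeq promoter sequences (GRCh38.p14) matched 6 of the 10 genes by symbol, with 2 windows for SLC39A10, and MT1E, MT1F, MT1G and SLC39A14 had no entry. The 250 bases before each transcription start were searched on both strands for the element's core in its 2 forms, TGCACNC and TGCGCNC, which cannot match the same bases of the same strand. Printed 5′ to 3′ on the gene's strand, with the matches of either strand in capitals, are the windows of MT2A (chr16:56608334-56608583, + strand), MT1X (chr16:56682220-56682469, + strand) and SLC30A1 (chr1:211579162-211579411, - strand).
MT2A: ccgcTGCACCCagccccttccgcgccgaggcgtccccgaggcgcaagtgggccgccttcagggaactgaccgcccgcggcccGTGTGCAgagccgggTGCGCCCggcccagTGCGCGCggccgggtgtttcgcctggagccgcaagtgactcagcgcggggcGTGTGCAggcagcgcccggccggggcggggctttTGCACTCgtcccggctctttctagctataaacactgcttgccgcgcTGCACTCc
MT1X: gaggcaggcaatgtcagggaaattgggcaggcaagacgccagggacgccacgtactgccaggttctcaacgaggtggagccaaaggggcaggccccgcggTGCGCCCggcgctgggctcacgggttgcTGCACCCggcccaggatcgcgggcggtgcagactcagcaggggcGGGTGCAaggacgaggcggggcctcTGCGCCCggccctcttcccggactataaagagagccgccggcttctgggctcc
SLC30A1: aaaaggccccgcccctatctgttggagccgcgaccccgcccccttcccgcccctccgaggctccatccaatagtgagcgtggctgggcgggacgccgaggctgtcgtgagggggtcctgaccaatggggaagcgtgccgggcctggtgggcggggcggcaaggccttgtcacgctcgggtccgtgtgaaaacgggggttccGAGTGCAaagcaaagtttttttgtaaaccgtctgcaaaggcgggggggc

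MT2A held 7 matches, 5 of the first form and 2 of the second, and MT1X held 4, with 2 of each form. In MT2A the match nearest to the start lay at bases -8 to -2, and in MT1X at -53 to -47. SLC30A1 held 1 match, at -49 to -43 on the opposite strand, and SLC39A6 held 1, at -17 to -11. These letters were not found in the windows of MTF1 and SLC39A10. Among 35116 RefSeq promoter windows of the same length, 24.8% held at least 1 match, 0.370% held 4 or more and 0.0313% held 7 or more. A match is a description of the letters and not a measured binding site.

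**Figure D1:**
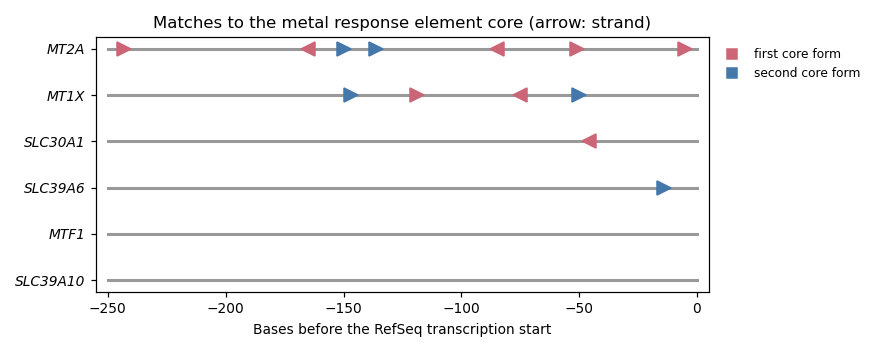
Positions of matches to the metal response element core in the 250 bases before the RefSeq transcription start of 6 genes; the x axis gives bases before the start, colors the 2 forms of the core and arrows the strand. MT2A carries 7 matches and MT1X 4, while MTF1 and SLC39A10 carry none in this window.

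The metallothioneins lie side by side on chromosome 16 of GRCh38. In GENCODE release 44, MT2A (ENSG00000125148) spans 56608584 to 56609497, MT1E (ENSG00000169715) 56625475 to 56627112, MT1F (ENSG00000198417) 56657731 to 56660698 and MT1X (ENSG00000187193) 56682470 to 56684196, all on the + strand, and MT1G (ENSG00000125144) spans 56666730 to 56668065 on the - strand. Their coding sequences are close copies of each other and uniquely aligned reads were counted, so reads that fit several of them were not counted and their levels are uncertain. A long noncoding RNA on the same strand overlaps 18.6% of the exon bases of MT1X, and 1 overlaps 6.16% of those of SLC39A6, which adds to the uncertainty. MTF1 (ENSG00000188786) and SLC30A1 (ENSG00000170385) are on chromosome 1 at 37809574 to 37859592 and 211571568 to 211579161, SLC39A6 (ENSG00000141424) is on chromosome 18 at 36108531 to 36129385, all 3 on the - strand, and SLC39A10 (ENSG00000196950) is on chromosome 2 at 195575977 to 195737702 on the + strand.

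Levels can be compared between genes only per length, here as RPKM, that is CPM divided by the length of the reference transcript in kilobases. In DMSO the 3 importers led. SLC39A6 was at 48.9 ± 1.9 RPKM (SD, n = 3), SLC39A14 at 39.2 ± 3.8 RPKM and SLC39A10 at 21.0 ± 1.7 RPKM, and in each of these steps every library of the higher gene was above every library of the lower. MT2A at 10.8 ± 0.90 RPKM, SLC30A1 at 10.7 ± 0.35 RPKM and MT1X at 9.69 ± 1.78 RPKM did not differ beyond the spread of their libraries. MTF1 followed at 3.45 ± 0.14 RPKM and MT1F at 1.83 ± 0.13 RPKM, each below the lowest library of the gene before it.

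MT1G had 0 reads in all 6 RNA-seq libraries, which allows at most 3 reads or, without TMM factors, 0.0519 to 0.138 CPM. This limit covers uniquely aligned reads only, since reads shared between metallothionein copies were not counted. MT1E had 1 read, in doxycycline replicate 1. Of the 13 other metallothionein genes and pseudogenes listed, none had more than 3 reads over the 6 libraries and none was tested. The counted metallothionein RNA of these cells was thus that of MT2A, MT1X and MT1F. Over the 5 listed metallothioneins, MT2A gave 46.4% to 56.8% of the reads of a library, MT1X 35.9% to 46.4% and MT1F 6.59% to 9.98%.

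Among the 14 SLC39 importers, SLC39A6 and SLC39A14 were at ranks 1 and 2 per length in DMSO and SLC39A10 at rank 6. Together they held 46.1% ± 1.2 (SD, n = 3) of the summed RPKM of the family in DMSO, and 45.3%, 41.6% and 33.5% in doxycycline replicates 1 to 3. The importers between them were SLC39A7, an importer of the endoplasmic reticulum and Golgi, at 31.6 ± 3.2 RPKM, SLC39A9 at 25.7 ± 0.78 RPKM and SLC39A3 at 25.4 ± 0.23 RPKM. SLC30A1, the exporter of the plasma membrane, was at rank 3 of 10 SLC30 genes with 11.5% ± 0.18 of their summed RPKM, after SLC30A9 at 30.8 ± 1.8 RPKM and SLC30A5, which loads zinc into the secretory pathway, at 27.8 ± 1.7 RPKM.

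**Figure D2:**
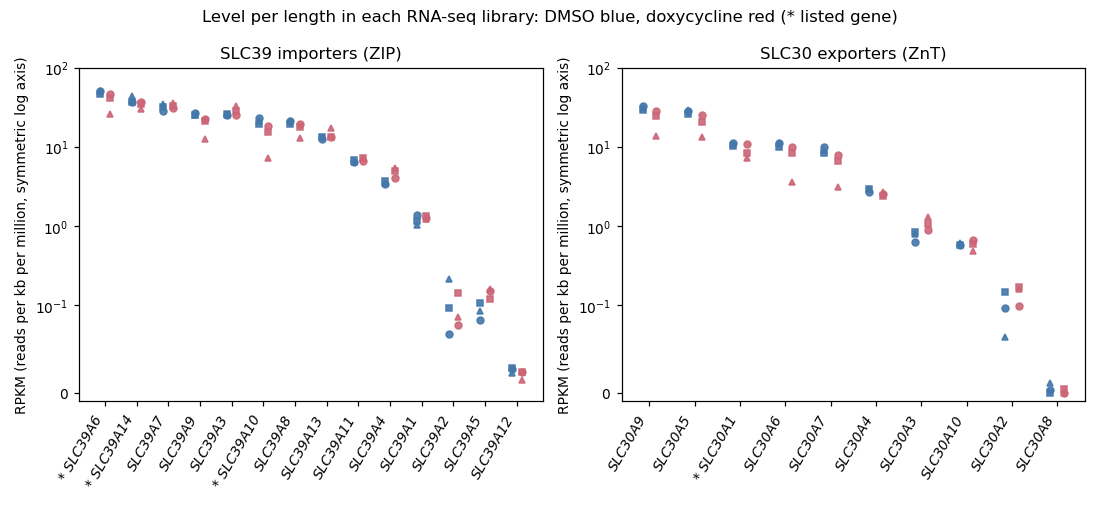
Level per length (RPKM, symmetric log axis) of each SLC39 and SLC30 gene in the 6 RNA-seq libraries; blue points are DMSO, red points doxycycline, shapes the replicates, and genes are ordered by their DMSO mean. SLC39A6 and SLC39A14 lead the importers, and in the 3 most abundant of the marked genes doxycycline replicate 3 lies lowest.

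In the comparison of doxycycline with DMSO over all 6 libraries, no metallothionein, exporter or importer of the list passed edgeR's quasi-likelihood test. Over 20552 genes the test called 0.00% higher and 0.00% lower at a Benjamini-Hochberg adjusted p of 0.05, so the count of members says nothing about them in particular. At an unadjusted p of 0.05, 9.58% of all genes were higher and 4.13% lower, and of the 8 members tested only MT1F passed. DESeq2's Wald test called none of the 8 either. All 8 had a log2 fold change below 0, with a median of -0.29 beside -0.04 for all genes tested, but MT2A and MTF1 were above 0 when libraries were scaled by their totals, MTF1 also by DESeq2's Wald test, and MTF1 and SLC30A1 with offsets adjusted for GC content. Scaling by totals moved the median of all genes to 0.10 and that of the 8 to -0.16. In 4 of the 8 every doxycycline library lay below every DMSO library, which 20.8% of all genes tested also showed, and 17.7% of genes showed the opposite order. Doxycycline replicate 3 was the lowest of the 6 libraries in 6 of the 8.

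Without doxycycline replicate 3, SLC39A10 fell and the other 7 did not pass. The test then called 3.40% of 20459 genes higher and 4.03% lower (696 and 825 genes, or 1442 and 339 when scaled by library totals), and the median of the 8 members was -0.18 beside -0.01 for all genes.

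MT2A, the main metallothionein of most tissues, was at 4.18, 4.08 and 4.74 CPM in DMSO and at 3.79, 3.87 and 4.61 CPM with doxycycline, from 117 to 231 reads a library. Doxycycline replicates 1 and 2 were below all DMSO libraries and replicate 3 was within their range, so the groups overlapped. Its log2 fold change was -0.09 ± 0.14 (SE) with edgeR's adjusted p = 0.69, and -0.18 ± 0.12 without doxycycline replicate 3 with adjusted p = 0.38.

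MT1X was at 3.52, 3.49 and 4.74 CPM in DMSO and at 3.43, 3.35 and 2.92 CPM with doxycycline. The groups did not overlap, but doxycycline replicate 1 lay just below DMSO replicates 1 and 2, and DMSO replicate 3 stood above all others. The log2 fold change was -0.27 ± 0.17 (edgeR's adjusted p = 0.35), and -0.21 ± 0.14 without doxycycline replicate 3 (adjusted p = 0.39).

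MT1F was at 0.751, 0.838 and 0.739 CPM in DMSO and at 0.511, 0.583 and 0.592 CPM with doxycycline, from 15 to 44 reads a library. Every doxycycline library was below every DMSO library. The log2 fold change was -0.47 ± 0.19 (edgeR's adjusted p = 0.33), and -0.51 ± 0.25 without doxycycline replicate 3 (adjusted p = 0.20), so MT1F had the lowest fold change of the 8 in that fit without passing the test.

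Summed over the 5 metallothioneins, the level was 8.44, 8.40 and 10.2 CPM in DMSO and 7.75, 7.80 and 8.12 CPM with doxycycline. The groups did not overlap, with means of 9.02 ± 1.04 and 7.89 ± 0.20 CPM (SD, n = 3) and p = 0.1 in the two-sided exact permutation test, which is the smallest p that 3 against 3 allows. Scaled by library totals the groups overlapped, at 7.97 to 9.67 CPM in DMSO and 7.61 to 9.50 CPM with doxycycline (exact permutation p = 0.5), and with DESeq2's size factors they overlapped as well (exact permutation p = 0.3). Without doxycycline replicate 3 the doxycycline mean was 7.77 CPM and the log2 ratio -0.22, against -0.19 with it (exact permutation p = 0.2, the smallest that 2 against 3 allows).

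MTF1 was at 28.4, 27.6 and 26.2 CPM in DMSO and at 28.2, 29.8 and 22.3 CPM with doxycycline. Doxycycline replicate 2 was the highest library and replicate 3 the lowest. Its log2 fold change was -0.03 ± 0.13 (edgeR's adjusted p = 0.90), and 0.08 ± 0.08 without doxycycline replicate 3 (adjusted p = 0.54).

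SLC30A1, a target of MTF1, was at 64.7, 60.8 and 63.9 CPM in DMSO and at 62.7, 48.9 and 41.8 CPM with doxycycline. Doxycycline replicate 1 was within the DMSO range and the other two below it. The log2 fold change was -0.30 ± 0.16 (edgeR's adjusted p = 0.33), and -0.18 ± 0.09 without doxycycline replicate 3 (adjusted p = 0.20).

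SLC39A10, an importer of the plasma membrane, was at 119, 101 and 109 CPM in DMSO and at 95.2, 80.3 and 37.9 CPM with doxycycline. Every doxycycline library was below every DMSO library, and replicate 3 stood far below the other two. The log2 fold change was -0.62 ± 0.30 (edgeR's adjusted p = 0.33), and without doxycycline replicate 3 SLC39A10 fell by 0.32 ± 0.08 on the log2 scale (edgeR's adjusted p = 0.0255). With GC-adjusted offsets, an alternative added after seeing the data, it was at -0.12 and no longer passed (edgeR's adjusted p = 0.14). With a further library left out, the call was lost without DMSO replicate 1 (-0.26, edgeR's adjusted p = 0.0761) and without doxycycline replicate 2 (-0.21, adjusted p = 0.439), where 1 doxycycline library remained and 2 genes were called higher and 7 lower over the whole table. It passed without doxycycline replicate 1 (-0.45, edgeR's adjusted p = 0.0022), without DMSO replicate 2 (-0.38, adjusted p = 0.00073) and without DMSO replicate 3 (-0.33, adjusted p = 0.031).

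SLC39A6, which forms a complex with SLC39A10, was at 179, 167 and 178 CPM in DMSO and at 164, 145 and 92.3 CPM with doxycycline. The groups did not overlap, doxycycline replicate 1 being the nearest to DMSO. The log2 fold change was -0.38 ± 0.20 (edgeR's adjusted p = 0.33), and -0.18 ± 0.07 without doxycycline replicate 3 (adjusted p = 0.11).

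SLC39A14 (ENSG00000104635), an importer of zinc, iron and manganese, was at 173, 172 and 203 CPM in DMSO and at 172, 160 and 139 CPM with doxycycline. Doxycycline replicate 1 was within the DMSO range, so the groups overlapped. The log2 fold change was -0.22 ± 0.12 (edgeR's adjusted p = 0.34), and -0.14 ± 0.08 without doxycycline replicate 3 (adjusted p = 0.26).

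**Figure D3:**
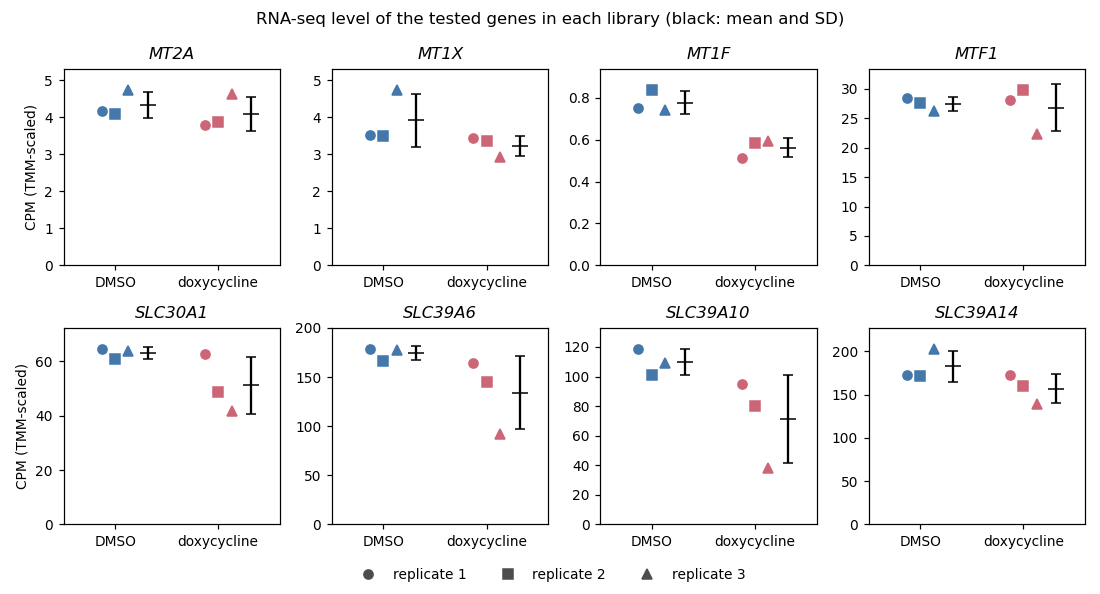
TMM-scaled CPM of the 8 tested genes in each RNA-seq library, with DMSO in blue, doxycycline in red, a shape for each replicate, and the mean and SD (n = 3) in black. SLC39A10 lies at 101 to 119 CPM in DMSO and at 37.9 to 95.2 CPM with doxycycline, while the groups of MT2A, MTF1, SLC30A1 and SLC39A14 overlap.

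**Figure D4:**
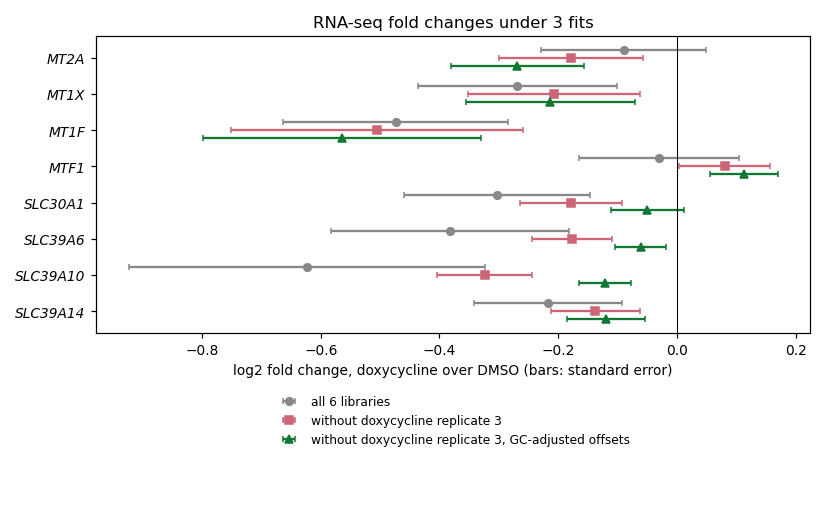
Log2 fold change of doxycycline over DMSO, with standard errors, for the 8 tested genes in the fit over all 6 libraries, the fit without doxycycline replicate 3, and that fit with GC-adjusted offsets. SLC39A10 moves from -0.62 to -0.32 and -0.12, while MT1F stays between -0.47 and -0.56.

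The GC content of the transcript moved with the fold change. Over all genes with a GC value, Spearman's rho between GC content and log2 fold change was 0.67 over all 6 libraries (20396 genes) and 0.54 without doxycycline replicate 3 (20305 genes), a description across genes that share the same libraries. Without doxycycline replicate 3, the median log2 fold change was -0.21 in the lowest of 10 equal bins by GC content, of which 20.0% were called lower, and 0.20 in the highest bin, of which 15.4% were called higher. The transcript of SLC39A10 has 37.1% GC and lies in the lowest bin, SLC30A1 has 40.7%, SLC39A6 41.6%, MTF1 46.6% and SLC39A14 47.6%, while MT1X has 49.3%, MT1F 52.9% and MT2A 55.6%.

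With the offsets that remove each library's GC trend, no member passed without doxycycline replicate 3, beside 2.07% of all genes called higher and 1.95% called lower. SLC39A10 was at -0.12 with edgeR's adjusted p = 0.14, SLC39A6 at -0.06 and SLC30A1 at -0.05 on the log2 scale. The metallothioneins were at -0.56 for MT1F, -0.27 for MT2A and -0.21 for MT1X (edgeR's adjusted p of 0.20, 0.20 and 0.45). The values of the transporters thus moved toward 0 and those of MT1F and MT2A away from it. What produced the trend was not tested.

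**Figure D5:**
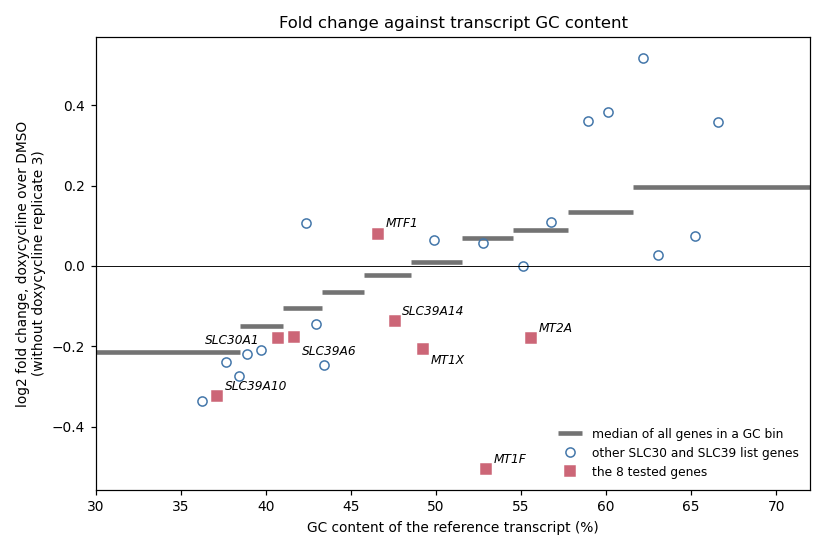
Log2 fold change of doxycycline over DMSO without doxycycline replicate 3 (y axis) against the GC content of the reference transcript in percent (x axis); grey bars are medians of all genes in 10 equal bins by GC content, red squares the 8 tested genes, open circles the other SLC30 and SLC39 list genes. SLC39A10, SLC30A1 and SLC39A6 lie near or below the bars of the GC-poor bins, and MT1F, MT2A and MT1X lie below the bars of their own bins.

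The rest of the zinc transporters were read from lists. Without doxycycline replicate 3, 3.40% of all genes were called higher and 4.03% lower. Of the 10 other exporter genes listed (SLC30 genes and TMEM163), 9 were tested and none rose. SLC30A7 fell by 0.34 ± 0.08 and SLC30A5 by 0.27 ± 0.08 on the log2 scale without doxycycline replicate 3 (edgeR's adjusted p of 0.027 and 0.044), both supplying zinc to the secretory pathway. The other 7 did not pass, and the median of the 9 was -0.21. The transcripts of SLC30A7 and SLC30A5 have 36.2% and 38.4% GC and lie in the lowest GC bin, of which 20.0% were called lower. Neither passed with GC-adjusted offsets.

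Of 11 other SLC39 importers 9 were tested. SLC39A9 fell by 0.25 ± 0.06 and SLC39A4, the importer of dietary zinc in the intestine, rose by 0.36 ± 0.11 on the log2 scale (edgeR's adjusted p of 0.028 and 0.045), and 7 did not pass. The median of the 9 was 0.07. Of all genes in the same fit, without doxycycline replicate 3, 3.40% were called higher and 4.03% lower. With GC-adjusted offsets SLC39A9 still passed, at -0.16 with edgeR's adjusted p = 0.034, and SLC39A4 did not, at 0.13 with adjusted p = 0.42.

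Among 13 copper handling genes 11 were tested, and COX11, which helps insert copper into cytochrome c oxidase, fell by 0.24 ± 0.07 (edgeR's adjusted p = 0.044) and none rose. Of 16 magnesium and manganese transport genes, all tested, CNNM3 rose by 0.27 ± 0.08 (edgeR's adjusted p = 0.043) and none fell. These calls, without doxycycline replicate 3, stand beside 3.40% of all genes called higher and 4.03% lower. The medians of these lists were -0.01 and -0.05 on the log2 scale, and neither gene passed with GC-adjusted offsets.

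The 14 targets of NRF2, a transcription factor activated by metals and electrophiles, were all tested, and 4 fell while none rose, beside 4.03% of all genes called lower and 3.40% higher. SLC7A11, the cystine importer, fell by 0.81 ± 0.10, GCLM, a subunit of the first enzyme of glutathione synthesis, by 0.40 ± 0.08, HMOX1, the inducible heme oxygenase, by 0.33 ± 0.08 and TXNRD1, a thioredoxin reductase, by 0.23 ± 0.07 on the log2 scale (edgeR's adjusted p of 0.0013, 0.013, 0.022 and 0.045). The median of the list was -0.22. The transcripts of SLC7A11 and GCLM have 35.4% and 37.3% GC and lie in the lowest GC bin, of which 20.0% were called lower. With GC-adjusted offsets SLC7A11, HMOX1 and GCLM still passed and TXNRD1 did not, beside 1.95% of all genes called lower. Over all 6 libraries no gene of any of these lists passed.

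The calls in these lists rested on few libraries. When DMSO replicate 1 was left out as well as doxycycline replicate 3, SLC7A11, HMOX1 and GCLM alone passed. When DMSO replicate 3 was left out as well, SLC30A7, SLC7A11 and GCLM alone passed. Without DMSO replicate 2 as well, 4 of the 9 exporters and 5 NRF2 targets fell and SLC30A3 rose. Of all genes tested in that fit (19984), 1426 were called higher and 1550 lower. The fits that left out DMSO replicate 1 or 3 called 193 or 396 genes higher and 258 or 386 lower. Without doxycycline replicate 1 or 2 as well, 1 doxycycline library remained, so only medians are given for these lists. Without replicate 1 the median log2 fold change was -0.27 for the exporters and -0.20 for the NRF2 targets, beside -0.01 for all genes. Without replicate 2 these medians were -0.11 and -0.12, beside -0.01 for all genes. Scaled by library totals, SLC30A5, SLC39A9, COX11 and TXNRD1 no longer passed and the NRF2 target TKT passed as higher.

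The level of summed metallothionein RNA was set beside that of 10368 genes at a mean of at least 10 CPM over the 6 RNA-seq libraries, on the log2(CPM + 1) scale. The genes most like it were TM7SF2, ARMCX2, EDEM2, PRMT6 and ENSG00000268573, for which no symbol is paired, with Pearson's r of 0.98, 0.97, 0.95, 0.95 and 0.94. These points share libraries, depth and treatment, and none of the 5 genes was among the 5 most alike when doxycycline replicate 3 was not used.

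The Ribo-seq libraries gave 24 reads over the 10 genes, and 6 of them had 0 reads in every library. SLC39A14 had 1, 4 and 6 reads in DMSO and 1, 2 and 2 with doxycycline, SLC39A6 had 6 reads, SLC39A10 had 1 read and MT1F had 1 read. In a library, 3 reads correspond to 2.99 to 14.3 CPM without TMM factors, so a footprint level below that was not detectable at this depth. SLC39A14 was the only member with the 10 reads needed for a test of translation efficiency, which sets footprints against RNA abundance. Its log2 change in efficiency was -0.52 ± 0.998 (SE) with edgeR's adjusted p = 0.86. Of 1334 genes tested, 0.150% were called lower and 0.00% higher.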

How the data were processed

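RNA-seq and Ribo-seq libraries of 293T 4A cells were grouped by the sample labels, 3 per group and 12 in all. The deposited table holds raw counts. The authors clipped the linker of the footprints, discarded ribosomal RNA, mapped with STAR and gave each gene its uniquely aligned exonic reads. Per the labels and methods the genome was GRCh38 for mapping and GRCh37 with Ensembl release 75 for annotation, and strand use is not stated. The other deposited table, of which only the symbols were used, holds the authors' own comparison.

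Of the gene rows, 99.1% matched GENCODE release 44 on GRCh38, from which coordinates and reference transcript length and GC content were taken. The 186 rows of spike-ins, viral genes and reads without a gene were left out of library sizes and tests; genes took 5.94% to 30.8% of a library's reads (RNA-seq) or 0.888% to 2.95% of them (Ribo-seq). Libraries were scaled with TMM factors, and genes reaching 10 reads in 3 or more libraries were tested with edgeR 4.0.16 (quasi-likelihood, R 4.3.3) with Benjamini-Hochberg adjustment over all genes at 0.05. Translation efficiency was the interaction of assay and treatment over the 12 libraries, for genes with at least 10 reads per assay. Single values were compared with two-sided exact permutation tests (scipy 1.17.1). Floors of 3 reads cover counting error only. Values after ± are the SD over libraries for levels and shares, and the SE from the fit for log2 changes. The paper calls the replicates biological, but the labels do not say that they were separate cultures. The p-values thus measure only the spread between these samples, which may be technical. On simulated counts with 200 genes changed 2-fold, the test recovered 141 over all 6 libraries and 171 without doxycycline replicate 3, and 13 and 131 at 1.5-fold. It also called 8 and 4 unchanged genes at 2-fold, and 3 and 10 at 1.5-fold. The simulated libraries had no GC trend and no shift of doxycycline replicate 3, so recovery in the real libraries may be lower.

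The 10 genes, the lists and the fit without doxycycline replicate 3 were chosen with earlier results of these data known. Named genes are the 10 members, up to 4 called genes of each list with the largest fold change without doxycycline replicate 3, the 5 genes most like the summed metallothioneins, and EIF4EBP1. SLC39A7, SLC39A3, SLC30A9, SLC30A3, TKT, the markers VIM and LIN28B and the markers at 0 reads are outside this rule and were named after their values were seen. Alternatives were library totals, size factors and the Wald test of DESeq2 1.42.0, edgeR's likelihood ratio test, no filter, a replicate block and each replicate left out. GC-adjusted offsets (a lowess curve of span 0.3 per library) were added after seeing the data, as were the alternatives for translation efficiency other than no filter.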

Additional observations from a re-analysis of the deposited data

How the results depend on the processing

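Of 192 recomputed fold changes of single members, 178 kept their direction and their side of the threshold, 5 passed only under the alternative, 3 no longer passed and 6 changed sign. Over all 6 libraries the sign changed for MT2A with library totals (0.058 on the log2 scale) and for SLC30A1 with GC-adjusted offsets (0.022). For MTF1 it changed with library totals (0.10), DESeq2's Wald test (0.0060), GC-adjusted offsets (0.081) and without doxycycline replicate 3 (0.081). With any other single replicate left out MTF1 stayed below 0, at -0.12 to -0.0031. The genes called over all 6 libraries were 1 higher and 2 lower by DESeq2's Wald test and 5 higher and 7 lower by the likelihood ratio test, and leaving out a replicate gave 0 to 696 higher and 0 to 825 lower, with 0 to 1 members lower. Without doxycycline replicate 3, library totals called 1442 genes higher and 339 lower, and GC-adjusted offsets called 420 and 396 with 0 members lower. Leaving out a further replicate called 2 to 1426 genes higher, 7 to 1694 lower and 0 to 3 members lower, with the fewest without doxycycline replicate 2, which leaves 1 doxycycline library assumed to vary like the others; SLC30A1 and SLC39A6 passed without doxycycline replicate 1. With the replicate number as a block, 2120 genes were called higher, 2613 lower and 3 members lower (SLC30A1, SLC39A6 and SLC39A10) without doxycycline replicate 3, and over all 6 libraries no gene was called. Deviations of same-numbered DMSO and doxycycline libraries correlated at 0.46, -0.44 and 0.03 for replicates 1 to 3. Doxycycline replicate 3, which stands apart, entered these values, so they cannot decide whether the numbers pair the samples. The main fits used no pairing. The change in translation efficiency of SLC39A14 was -0.51 with the block against -0.52 without it, and with a replicate left out it ranged from -0.90 without DMSO replicate 1 to -0.16 without doxycycline replicate 1 (-0.25 without DMSO replicate 3), passing in none. The summed metallothioneins stayed lower with doxycycline in all settings, at -0.24 to -0.09 on the log2 scale with a replicate left out (nearest to 0 without DMSO replicate 3) and -0.04 with library totals.

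Depth limits the metallothioneins, MT1F above all with 15 to 44 reads per RNA-seq library, and Ribo-seq of every member. Reads shared between metallothionein copies were not counted. The causes of these differences between settings were not tested.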
